A study of Mus musculus with 2 samples.

Results

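The Mir200 family comprises 5 miRNA hairpins, Mir200b, Mir200a, Mir429, Mir200c and Mir141. They were taken by symbol from small RNA count tables of embryonic mouse face that list 1973 miRNA genes. All 5 were found, and all 5 had at least 10 counts in each library, as did 376 of the 1973 genes (19.1%). The study profiled pooled facial prominences of embryos of the mouse strain B6NCrl at embryonic day 10.5, both sexes together and described as healthy, with inserts shorter than 30 nt sequenced from total RNA. Its 1 group has 2 biological replicates. Replicate 1 pooled tissue from 69 embryos and replicate 2 from 51. No genotype, treatment or second stage is among these samples. The same-strand reads of all miRNA genes came to 2853511 in replicate 1 and 3517226 in replicate 2. Levels below are CPM, the reads of a hairpin divided by this total and multiplied by 1000000, as mean ± SD over the 2 libraries (n = 2).

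A miRNA is cut from a hairpin in a longer primary transcript. It recognises messenger RNAs mainly through its seed, the stretch of bases 2 to 8 from the 5′ end. The Mir200 family is a hallmark of epithelial cells, in which it represses the transcription factors Zeb1 and Zeb2 and so keeps E-cadherin expressed. Its loss accompanies the change of epithelial cells into mesenchymal ones. In the facial prominences an ectodermal epithelium covers a mesenchyme that derives largely from neural crest. The libraries were made from whole prominences and not from separated epithelium, so the values are levels in the mixed tissue.

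The mature sequences of the 3p arm, the arm usually regarded as the active one in this family, are shown because they divide the hairpins into 2 seed groups. The sequences are those of RefSeq on GRCm38.p6, where all 5 hairpins were matched by symbol, and capitals mark the seed.
miR-200b-3p: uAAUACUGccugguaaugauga
miR-200c-3p: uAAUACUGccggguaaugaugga
miR-429-3p: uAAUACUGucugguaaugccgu
miR-200a-3p: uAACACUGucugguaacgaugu
miR-141-3p: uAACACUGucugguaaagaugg

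Mir200b, Mir200c and Mir429 shared the seed AAUACUG, and Mir200a and Mir141 shared AACACUG. Counted from 1 at the 5′ end, the change from the Mir200b to the Mir200a sequence within the seed was U4C. None of the other mature sequences among the 1738 in the table carried either seed. The 2 seed groups cut across the genome, since each locus holds hairpins of both. Mir141 and Mir200a were the pair with the longest common stretch, 17 bases of the hairpin, and their 3p sequences differed by A17C and G22U. Mir200c and Mir200b differed by G11U and G22A over the 22 positions compared. No hairpin outside the family among the 1005 in the table shared 20 bases with a member, and each mature arm was found in 1 hairpin of the table. Reads of full arm length could therefore be told apart between the listed hairpins, while reads that mapped to several places had no gene in the tables.

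The 5p arms were less alike. They are shown because a hairpin's count sums reads of both arms, and the seed groups above apply to the 3p arm alone.
miR-200b-5p: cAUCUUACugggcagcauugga
miR-200a-5p: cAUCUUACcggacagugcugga
miR-200c-5p: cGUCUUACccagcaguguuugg
miR-429-5p: gUCUUACCagacaugguuaga
miR-141-5p: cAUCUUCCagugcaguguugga
Only Mir200b and Mir200a had the same 5p seed, AUCUUAC. The tables do not divide the counts by arm.

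The hairpins lie in 2 loci, both on the minus strand of mm10. The first spans 1846 bases of chromosome 4. In the direction of transcription it holds Mir200b (ENSMUSG00000065549.2, 156055681 to 156055750), Mir200a (ENSMUSG00000065400.1, 156054896 to 156054985) and Mir429 (ENSMUSG00000065427.1, 156053905 to 156053987), with gaps of 695 and 908 bases. All 3 lie in introns of Ttll10, a coding gene on the same strand. They also lie within the non-coding gene Gm13648, in an intron for Mir200b and Mir200a and overlapping an exon for Mir429. The second locus spans 477 bases of chromosome 6 with Mir200c (ENSMUSG00000065462.2, 124718322 to 124718390) and Mir141 (ENSMUSG00000065474.1, 124717914 to 124717985), separated by 336 bases. Both lie in an intron of the non-coding gene Gm15884 on the same strand, and Mir141 also overlaps an exon of Gm29008, an unclassified transcript. No member overlapped a coding exon or an untranslated region.

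Together the 5 hairpins had 15600 CPM in the first pool and 13060 CPM in the second, a mean of 14330 ± 1796 CPM or 1.43% ± 0.18 of all miRNA counts. Mir429 was the highest member, with 8123 CPM in replicate 1 and 6716 CPM in replicate 2 (7419 ± 995). It ranked 33 of 1973 genes by mean level, between Mir21a (7503 ± 856 CPM) and Mir369 (7415 ± 154 CPM). Mir200c followed with 3441 and 3391 CPM (3416 ± 35.1, rank 59). This was the closest match between the libraries of any member.

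Mir200b had 2702 CPM in replicate 1 and 1902 CPM in replicate 2 (2302 ± 565, rank 70). Its level was below that of Mir200c in both libraries. Mir141 had 695 and 624 CPM (660 ± 50.4, rank 117). Mir200a was the lowest, with 640 CPM in replicate 1 and 427 CPM in replicate 2 (534 ± 150, rank 126), still far above the 3 counts that a count of 0 allows (1.05 and 0.853 CPM in replicates 1 and 2).

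The order Mir429, Mir200c, Mir200b, Mir141, Mir200a was the same in both libraries. For each neighbouring pair but Mir141 and Mir200a, the ranges over the libraries did not overlap. Mir141 in replicate 2 (624 CPM) lay below Mir200a in replicate 1 (640 CPM), so their ranges overlapped. Within each library Mir141 was the higher, with 1.09 reads for each read of Mir200a in replicate 1 (exact 95% interval 1.02 to 1.16) and 1.46 in replicate 2 (1.37 to 1.56). The annotated mature arms are 21 to 23 bases long whatever the length of the hairpin, so CPM was not divided by length. Divided by the annotated hairpin length, the order of the levels was unchanged, from 89.4 ± 12.0 CPM per base for Mir429 to 5.93 ± 1.67 for Mir200a. On that scale Mir141 (9.66 and 8.67 CPM per base) no longer overlapped Mir200a (7.11 and 4.75 CPM per base). Small RNA libraries capture some sequences better than others, and differences between hairpins are differences in reads.

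**Figure D1:**
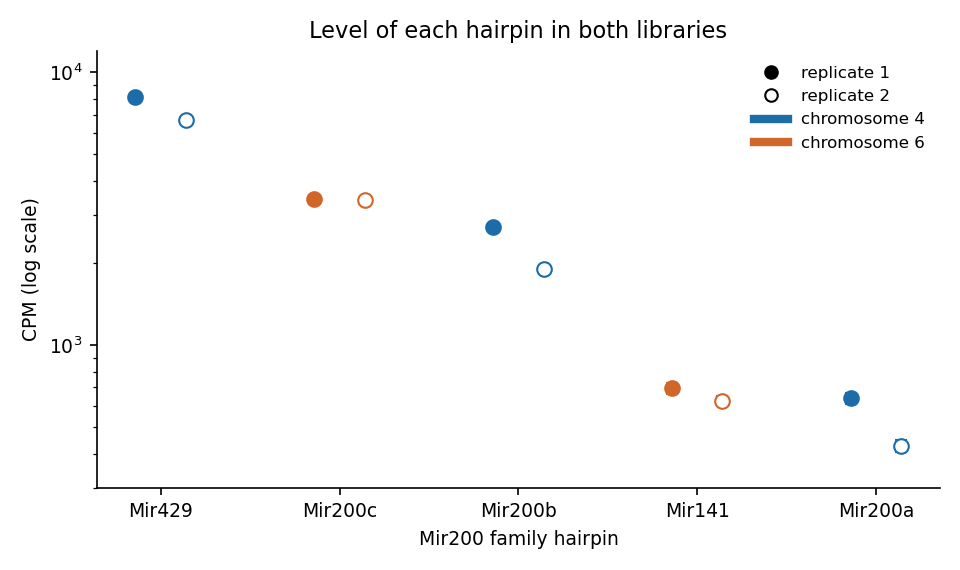
Level of each Mir200 family hairpin in CPM (log axis) in replicate 1 (filled) and replicate 2 (open), coloured by chromosome, with exact 95% counting intervals that are mostly smaller than the points. Mir429 lies highest in both libraries, the Mir200c points nearly coincide, and Mir141 in replicate 2 lies below Mir200a in replicate 1.

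Hairpins of the same locus were far from equal. On chromosome 4 Mir429 had 13.9 times the mean CPM of Mir200a, and on chromosome 6 Mir200c had 5.18 times that of Mir141. In replicate 1 Mir429 had 12.7 reads for each read of Mir200a (exact 95% interval 12.1 to 13.3), and in replicate 2 it had 15.7 (14.9 to 16.6). Mir429 also exceeded Mir200b, with 3.01 reads for 1 (2.93 to 3.09) in replicate 1 and 3.53 (3.44 to 3.63) in replicate 2. Mir200c gave 4.95 reads for each read of Mir141 (4.72 to 5.20) in replicate 1 and 5.43 (5.19 to 5.69) in replicate 2. Level did not follow position in the transcript, since the highest hairpin was the last of the chromosome 4 locus and the first of the chromosome 6 locus. In both loci the lowest hairpin was the one with the AACACUG seed. Intervals here and below are exact Clopper-Pearson intervals and cover the counting error of reads only, not the spread between libraries. PCR copies of 1 molecule are counted as separate reads, so the intervals can be too narrow even for counted molecules.

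**Figure D2:**
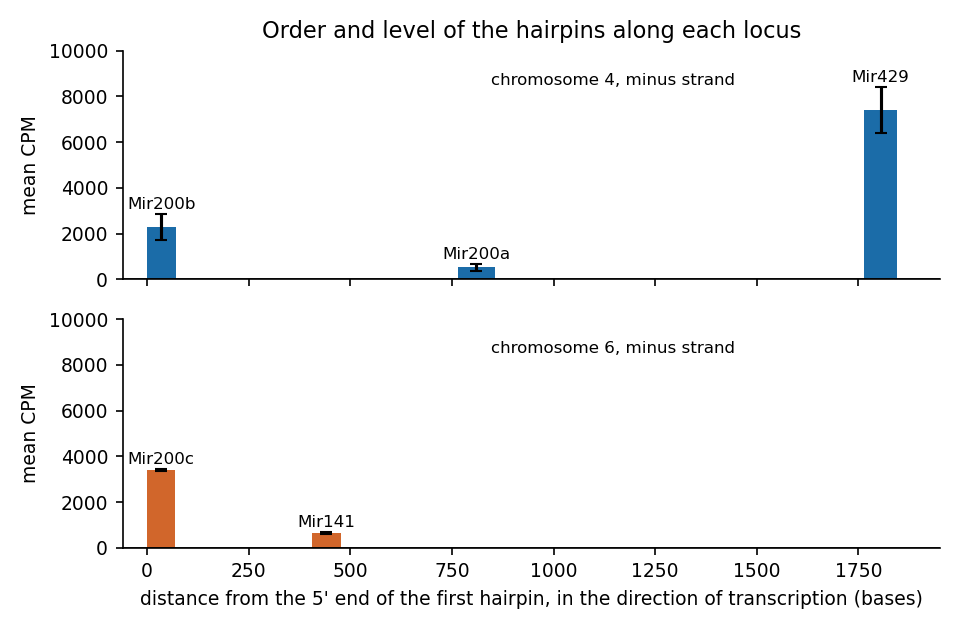
Mean CPM of each hairpin (bars, from 0, with SD over 2 libraries) at its distance in bases from the start of the first hairpin of its locus, drawn to scale in the direction of transcription. Mir429, at the end of the chromosome 4 locus, has the highest bar, and in the chromosome 6 locus the first hairpin, Mir200c, is the higher.

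The 3 hairpins with the AAUACUG seed in the 3p arm held nearly all family reads, counted over both arms. Mir429, Mir200c and Mir200b made up 91.4% of family counts in replicate 1 (91.2% to 91.7%) and 91.9% in replicate 2 (91.7% to 92.2%), a mean of 91.7% ± 0.359. Mir200a and Mir141 gave the other 8.56% and 8.05%. The shares of the seed groups differed by less than 1 percentage point between the pools. In CPM the AAUACUG group summed to 13137 ± 1596 and the AACACUG group to 1193 ± 201.

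The shares of the loci differed more. The chromosome 4 locus held 73.5% of family counts in replicate 1 (73.1% to 73.9%) and 69.3% in replicate 2 (68.8% to 69.7%), a mean of 71.4% ± 2.99. The chromosome 6 locus held 26.5% and 30.7%. Mir429 alone took 52.1% in replicate 1 and 51.4% in replicate 2. Mir200c took 22.1% in replicate 1 and 26.0% in replicate 2, while Mir200b had 17.3% and 14.6%. Mir141 had 4.46% and 4.78%, and Mir200a 4.10% and 3.27%. The counting intervals of the locus shares did not overlap between the libraries, and whether the pools differ beyond biological variation cannot be tested with 1 library each.

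**Figure D3:**
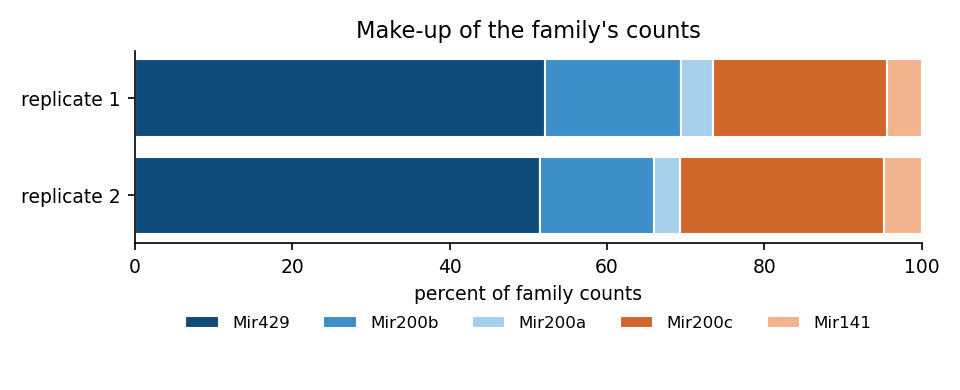
Share of family counts from each hairpin in each library, in percent, with the chromosome 4 hairpins in blue and the chromosome 6 hairpins in orange. The blue part covers 73.5% in replicate 1 and 69.3% in replicate 2, and Mir429 covers just over 51% in both.

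Every member had a lower CPM in replicate 2, and the difference was larger in the chromosome 4 locus. Locus sums were 11464 CPM in replicate 1 and 9045 CPM in replicate 2 on chromosome 4, a log2 ratio of -0.34 (replicate 2 over replicate 1, counting interval -0.36 to -0.32). On chromosome 6 they were 4136 and 4015 CPM, a log2 ratio of -0.043 (-0.078 to -0.0074). The pools are replicates of 1 group, so these ratios describe the spread between them and no response to a condition. In such bulk tissue, fewer epithelial cells and less of these RNAs per cell cannot be told apart.

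By the two-sided exact binomial test, with Benjamini-Hochberg adjustment over the 449 genes that had at least 10 counts in all, 4 of 5 members were lower in replicate 2 and 0 were higher. Over all genes tested, 40.3% passed in either direction and 20.3% were lower in replicate 2. The test asks only whether 2 libraries differ beyond counting error, and it is sharp for abundant genes. Of the 128 genes averaging 500 CPM or more, the level range that holds all 5 members, 85.9% passed in either direction and 41.4% were lower in replicate 2. Passing it is therefore usual at these levels, and the size of the ratio says more.

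Mir200a had the lowest log2 ratio of the family, -0.58 (-0.68 to -0.48, adjusted p = 2.59e-30 by the exact test). Mir200b was close to it, with -0.51 (-0.55 to -0.46, adjusted p = 9.72e-97). Among the 128 genes of at least 500 CPM, 5 lay lower than Mir200a and 6 lower than Mir200b. Mir429, the third hairpin of the same locus, had -0.27 (-0.30 to -0.25, adjusted p = 1.52e-92), with 16 genes lower. The intervals of Mir200a and Mir200b overlapped, and that of Mir429 lay apart from both.

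On chromosome 6 the ratios were nearer to 0. Mir141 had -0.16 (-0.24 to -0.068, adjusted p = 0.00165 by the exact test), with 34 of the 128 genes lower. Mir200c had -0.021 (-0.060 to 0.018) and did not pass (adjusted p = 0.464). It passed in 1 alternative, with CPM taken over all reads of the library, where its log2 ratio was -0.059. The median over the 5 members was -0.27, beside 0.012 over all 449 genes tested and 0.026 over the 128 genes of similar level. The SD of the ratio over those 128 genes was 0.38. Other scalings of the totals shifted all log2 ratios alike, by -0.038 to 0.019, and with edgeR's TMM factors Mir200c stood at -0.0015 (adjusted p = 0.996 by the exact test).

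**Figure D4:**
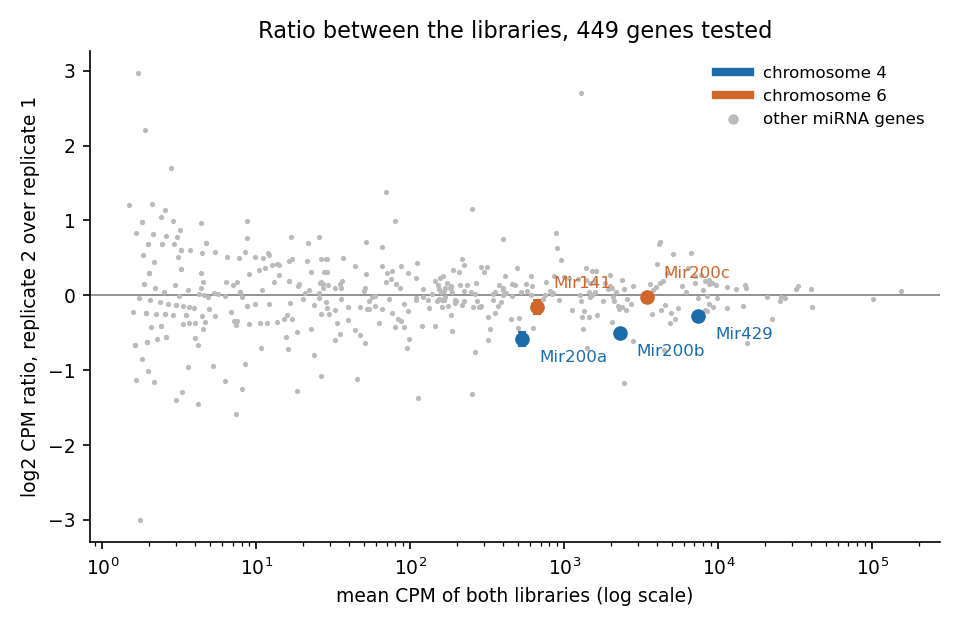
Log2 ratio of CPM, replicate 2 over replicate 1, against mean CPM (log axis) for the 449 miRNA genes tested (grey), with Mir200 family members in colour and exact counting intervals as bars. The 3 chromosome 4 hairpins lie between -0.58 and -0.27, below the 2 chromosome 6 hairpins at -0.16 and -0.021.

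Outside the family and the marker lists below, 92 genes averaged 1000 CPM or more. The 5 of them with log2 ratios nearest to that of the family sum (-0.26) were Mir541 (-0.25), Mir301 (-0.26), Mir21a (-0.23), Mir125b-1 (-0.29) and Mir107 (-0.29). Over 2 libraries likeness is only the distance between single ratios, and genes with unrelated patterns can share one.

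Over the sums only, the family stood in close proportions in both pools to the other miRNAs of surface epithelium, Mir205 and Mir203. Mir205, a miRNA of stratified epithelium, had 9689 and 8685 CPM, and Mir203, known from the differentiating epidermis, had 3402 and 2220 CPM. The family sum was 1.19 times their sum in replicate 1 and 1.20 times in replicate 2. Within that pair the log2 ratios were -0.16 for Mir205 and -0.62 for Mir203. Both were lower in replicate 2 by the exact test, beside 20.3% lower over all genes tested. Each averaged over 500 CPM, where 41.4% of genes were lower and 85.9% passed in either direction.

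The remaining marker lists give the levels of other cell types' miRNAs in the same libraries. Reads that mapped to several places are in none of these sums, so a list whose hairpins share mature sequences can be undercounted. All 6 mesenchymal miRNAs were detected, beside 19.1% of all 1973 genes. They summed to 26190 and 23099 CPM in replicates 1 and 2, led by Mir214 (14538 ± 1041 CPM) and Mir143 (8449 ± 846 CPM). The family sum was 0.596 times theirs in replicate 1 and 0.565 times in replicate 2. Of these 6 genes 3 were lower and 0 higher in replicate 2 by the exact test, with log2 ratios from -0.71 to 0.12. Over all genes tested 20.3% were lower. The 3 that passed averaged over 500 CPM, where 41.4% of genes were lower. The Mir183 cluster of sensory organs and placodes, which are themselves epithelial, summed to 36062 and 27292 CPM, led by Mir182 (18633 and 12039 CPM) and Mir183 (12116 and 10743 CPM). Its 3 genes were all lower in replicate 2 by the exact test, beside 20.3% lower over all genes tested. Each averaged over 500 CPM, where 41.4% of genes were lower and 85.9% passed in either direction. The family sum was 0.433 and 0.479 times the cluster's. Mir126a, the endothelial marker, had 31642 and 34369 CPM and was higher in replicate 2 (log2 ratio 0.12).

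MiRNAs of blood and nerve cells were far lower than the family. The erythroid pair Mir451a and Mir144 summed to 400 and 180 CPM, of which Mir451a had 359 and 143 CPM. Mir223, the leukocyte marker, had 245 and 253 CPM. Of 6 matched neural genes 2 were detected, beside 19.1% of all 1973 genes. They were Mir137 (680 and 593 CPM) and Mir9-3 (41.0 and 28.4 CPM), and the list summed to 723 and 630 CPM. Mir137 and Mir9-3 were lower in replicate 2 by the exact test, beside 20.3% lower over all genes tested. Mir137 averaged over 500 CPM, where 41.4% of genes were lower. In either direction 40.3% of all genes tested passed. The 3 copies of the neuronal Mir124 were near 0. Mir124a-1 had 0 reads in replicate 1 and 1 in replicate 2, Mir124a-2 had 3 and 16, and Mir124a-3 had 0 and 12. Mir124a-2 and Mir124a-3 passed the exact test as higher in replicate 2, opposite to Mir137 and Mir9-3. Reads that mapped to several places are not in these counts. The surface epithelium, placode, mesenchymal, erythroid and neural sums were lower in replicate 2, as the family sum was. The largest of these differences was the erythroid one (log2 ratio -1.15), and the neural sum had -0.20. Within the erythroid pair Mir451a had -1.32, while Mir144 (118 and 130 reads) had -0.16 and did not pass the exact test (adjusted p = 0.584). Endothelial Mir126a was higher (0.12), while leukocyte Mir223 (0.048) did not pass the exact test (adjusted p = 0.676). The part of tissue make-up in the family's ratio was not tested.

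**Figure D5:**
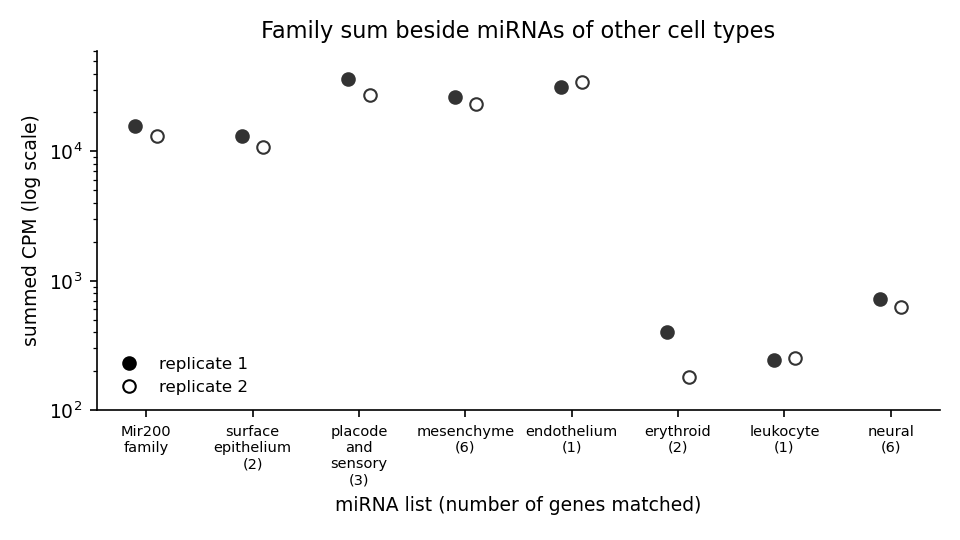
Summed CPM (log axis) of the Mir200 family and of 7 marker lists in replicate 1 (filled) and replicate 2 (open), with the number of matched genes in brackets. The family lies beside the surface epithelium pair, below the placode, mesenchymal and endothelial lists, and well above the erythroid, leukocyte and neural lists.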

How the data were processed

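Per the text files deposited beside each table, the authors assigned reads to miRNA genes of GENCODE M4 on mm10. The deposited values are raw read counts, with 1 table for each library. The aligner is not given in the sources used here. Counts on the gene's strand were used, 97.6% of gene reads in each library, and CPM was computed over all gene rows without the 4 summary lines. These lines held 58.2% and 59.3% of reads in replicates 1 and 2, which were unmapped (21.6% and 24.1%), mapped to several places (27.6% and 25.9%) or outside genes (9.01% and 9.32%). Symbols and positions came from GENCODE M21 on the same build (1894 of 1973 identifiers matched) and sequences from RefSeq.

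With 1 group of 2 biological replicates there was no contrast of conditions to fit. Ratios used a pseudocount of 0.5 CPM. The exact binomial test (scipy 1.17.1) was adjusted over all genes with at least 10 counts in all at a threshold of 0.05. It was tested on simulated counts with known totals, counting error alone and no spread between pools. Intervals are at 95%. Alternatives used edgeR 4.0.16 and DESeq2 1.42.0 for scaling factors only. The genes named were the 5 members, both surface epithelium genes and the 2 highest detected genes of each other marker list. By the same rule the 5 genes with ratios nearest to the family sum and the neighbours of the members in level were chosen. Of these neighbours, only those of Mir429 were printed as such. The 3 Mir124 copies are no part of that rule and were picked with their values known. Mir142 and Mir9-1 had no matched row and were not analysed here. The members, lists and tests were chosen with earlier results of these data known.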

Additional observations from a re-analysis of the deposited data

Results flagged for a closer look

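Reads on the strand opposite an annotated gene were outside the counts used, and 4 of the genes named above had more than 3 such reads in each library. Opposite Mir203 they came to 51 reads in replicate 1 and 76 in replicate 2, a mean of 19.7 CPM. Opposite Mir126a there were 9 and 20 reads, a mean of 4.42 CPM, and opposite Mir183 there were 5 and 9 reads, a mean of 2.16 CPM. Mir124a-3 had 4 opposite-strand reads in each library, a mean of 1.27 CPM. No member of the Mir200 family had more than 2 opposite-strand reads in a library.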

How the results depend on the processing

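Of 147 alternative values, 128 were counted as unchanged. For levels, shares and ratios to other lists this meant a mean within the SD over the libraries. A value from 1 library alone always meets that rule, and such values are among the 128. Ratios of sums had to lie within the counting interval, and the number of genes past the test to stay of similar size. For ratios of single members only direction and side of the threshold counted. Mir429 over all reads was thus unchanged at -0.31, outside its counting interval (-0.30 to -0.25). A pseudocount changes neither the direction nor the test, so its alternatives could not fail this rule. The minimum count alters only the adjustment of the p-values and not the ratio. Of 45 ratios of single members, these included, 44 were unchanged. The exception was Mir200c with CPM over all reads of the library, where the log2 ratio of -0.059 passed (adjusted p = 0.00756 by the exact test), against adjusted p from 0.339 to 0.996 in its other alternatives. Levels moved by construction with the denominator. Over all reads, the family sum was 5917, Mir429 3064, Mir200c 1409, Mir200b 951, Mir141 272 and Mir200a 221 CPM. Without the 10 highest genes in the total, these were 28717, 14868, 6844, 4613, 1322 and 1070 CPM. Mir200c, whose SD was small, was 3333 CPM in the unstranded count and 3802 CPM when scaled by hairpin length. The family ratio was -0.24 with TMM factors and -0.29 over all reads. Over all reads the locus ratios were -0.38 on chromosome 4 and -0.081 on chromosome 6. The number of genes past the test lay between 169 and 186, against 181. Leaving out 1 replicate gives the value of the other library, printed above for each level and share. No paired analysis was possible because the series holds 1 group. With 2 libraries the SD itself is poorly known.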
